A study of Mus musculus with 4 samples.

Results

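MeRIP-seq called 4650 of 72774 listed m6A regions in spinal cord transcripts listed under a catalogue name, either a Gm number (a predicted mouse gene model) or a name ending in Rik (a RIKEN full-length cDNA clone). These rows were taken by name from the peak list of CCI mice (2088 of 33556 rows, 6.22%), the peak list of sham mice (2324 of 34406 rows, 6.75%) and the table of differential peaks (238 of 4812 rows, 4.95%). Merging rows that shared an exonic base on the strand of the named gene left 2380 loci in 1483 of 13558 gene names, of which 915 were Gm and 568 were Rik names. The label is therefore one of nomenclature and not of RNA type. RefSeq gave a class for 929 of the 1483 names (833 by symbol and 96 by an older symbol): 471 were long non-coding RNAs (lncRNAs), 279 were protein-coding genes, 141 were pseudogenes, 38 were small or other RNAs, and 554 names had no match.

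The tissue was spinal cord of male C57BL/6J mice, 6 to 8 weeks old. The CCI group was taken on day 7 after chronic constriction injury, in which silk ligatures are tied loosely around the sciatic nerve, and the sham group on day 7 after the same exposure with no ligature. Each group gave 1 m6A immunoprecipitation (IP) library and 1 input library of polyadenylated RNA, and the number of mice behind a library is not given in the sources used here. With 1 library of each kind in a group no difference between CCI and sham has a replicate check, so none is given a p-value, and the intervals below are 95% Wilson intervals that cover counting error over rows only, rows of 1 gene not being independent.

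N6-methyladenosine is written on nascent RNA polymerase II transcripts by the METTL3 and METTL14 methyltransferase and removed by FTO and ALKBH5. In messenger RNA it is densest near the stop codon and in long internal exons, and it is carried by many lncRNAs as well. The antibody enriches RNA fragments that hold the mark, so a peak marks a stretch of RNA, and a gene name is attached to it afterwards from an annotation. Many Gm and Rik models lie inside, beside or opposite better known genes, which makes that last step matter for them more than for most.

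The sequences that show this most directly are those at the starts of named transcripts, from RefSeq (GRCm38.p6). They are printed 5′ to 3′ on the strand of the named gene. The letters GGACA or GGACC or GGACT, frequent m6A contexts, are in capitals. TGTCC, the reverse form of GGACA, is in capitals where the match shown lies on the other strand. No more than 1 match is marked in a run, and any further match is left in lower case. A window of 250 bases before and 50 bases after the start was at hand for 605 of the 1482 names with a row in a peak list, and a peak reached into the window of 116 of them (19.2%). In 68 of the 116 (58.6%) a peak also covered bases before at least 1 annotated start of the name. Some names have more than 1 start, so such bases can still lie in another transcript of the name. The examples were chosen after their values were seen, among names whose peaks had a fold enrichment of at least 20 and covered at least 20 bases of the window in both lists. For 7 of these names the peak of both lists began at the first annotated base, and bases near the start of those transcripts read as follows, positions counted from 1 at the start.
6030419C18Rik: GGACTttccccaccgttgatggagccgact
6430548M08Rik: agaaGGACCcggcacggctggtcgcgcggt
2610002M06Rik: tagctcgtgGGACTccacccaccacgggtt
1810013L24Rik: gaggcgtcgacgccgccgccgtagacgacg
2510009E07Rik: ggaggacgacagagagagacgggaggaggg
A330074K22Rik: ctctcctctcgattcctcctcccctgacct
2310022B05Rik: ccgtacgaagggTGTCCcgggaaggtctgg
These runs cover positions 1 to 30, except that of 2310022B05Rik, which covers 13 to 42. They lie at chr9:58488603-58488632 (+), chr8:120114152-120114181 (+), chrX:107816305-107816334 (-), chr16:8830100-8830129 (+), chr16:21694636-21694665 (-), chr8:120228201-120228230 (-) and chr8:124663328-124663357 (-), in that order. Fold enrichment, the ratio of IP to input signal in the peak as the submitters list it, was 468 in CCI and 763 in sham for 6030419C18Rik (Insyn1, a protein of inhibitory synapses), 205 and 208 for 1810013L24Rik, 63.1 and 94.1 for 6430548M08Rik, 70.9 and 84.8 for the lncRNA A330074K22Rik, 42.7 and 97.6 for 2310022B05Rik, 31.5 and 23.7 for 2610002M06Rik, and 21.4 and 36 for 2510009E07Rik. By this choice all 7 peaks began at the start of the named transcript, though that of 6030419C18Rik also had bases outside the named span. All 270 bases of the 2610002M06Rik peak also lay within Tent5d in both lists. Here and below, bases in a RefSeq gene of another name were counted against its whole span, introns included, on either strand. Such bases need not be in an exon of that gene. Of the 7 pairs 1, that of 2310022B05Rik, differed by at least 2-fold (log2 ratio of CCI to sham -1.19).

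At another 7 names within these limits the peak covered bases before the start, and the 7 were chosen with a motif there in view. 4430402I18Rik (20.3 in CCI and 55.8 in sham, log2 ratio -1.46, 156 bases before 1 of its starts) and A230057D06Rik (26.2 and 33, 64 bases before the start) also met the limits and are not shown. Nor are 6330408A02Rik (146 and 81.3, within Lig1) and Gm5601 (26.6 and 22.9), whose window bases common to both peaks lay after the start. The run shown for each lies before the start and inside the peak of both lists, so it is upstream of the transcript that RefSeq annotates (for Gm10419 the model in the peak lists starts earlier, at base 108367769, within the run).
1700039E22Rik: gaggtgggggtgGGACAgggacggtggccg
Gm15612: ggtccgcgtggaGGACCgggaggggcgcgg
A730035I17Rik: tagagtctggtgGGACCcacgccgtctccc
Gm12236: ttcacttgttgtGGACAtcctctctccgga
Gm10419: cgccgcgcggccGGACCgccggcctcctct
9630013K17Rik: ccagggcagtgcTGTCCgtgtgtctgtctg
4933428G20Rik: acggtccatggtGGACAgggtggagtagcc
Their coordinates, in the same order, are chr19:44836138-44836167 (-), chr6:88842697-88842726 (+), chr5:98186156-98186185 (-), chr11:55514812-55514841 (+), chr5:108367763-108367792 (+), chr11:63964052-63964081 (+) and chr11:97500391-97500420 (-). Each of these peaks lay wholly or almost wholly within a protein-coding RefSeq gene of another name. The 1584 exonic bases of the 1700039E22Rik peak were all in Pax2, a transcription factor of spinal interneurons, and 189 of them were in the named lncRNA (fold enrichment 373 in CCI, 168 in sham). The Gm15612 peak (189 and 200) was in Podxl2, the A730035I17Rik peak (85.5 and 139) in Prdm8, the 9630013K17Rik peak (50.3 and 27.1) in the cytochrome oxidase assembly gene Cox10, and the 4933428G20Rik peak (36.3 and 31.2) in Arhgap23. The Gm12236 peak (48.5 and 33) had 626 of its 627 CCI bases in Glra1, the spinal glycine receptor subunit, and 19 in Gm12236 itself. The letters are frequent everywhere, in these windows as in others: 60.2% of all 32851 RefSeq windows held 1 of the 3 motifs on the strand of the gene and 83.9% on either strand, against 73.8% and 91.3% of 126 windows of Gm and Rik names with a peak. A match is a description of the letters, not of a methylated base.

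A peak over a microRNA hairpin shows the same thing at small scale. Gm23450 is the RefSeq gene of mmu-miR-935. Its mature sequence, seed (bases 2 to 8) in capitals, is shown with that of mmu-miR-1895, the other hairpin that a Gm or Rik peak reached.
mmu-miR-935: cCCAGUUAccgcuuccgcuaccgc
mmu-miR-1895: cCCCCGAGgaggacgaggagga
The mature miR-935 lies at chr7:3415120-3415143 (+) within a hairpin of 91 bases, all of which were inside the peak named Gm23450 at chr7:3414877-3415648. That peak had 772 bases and a fold enrichment of 79.7 in CCI and 76.3 in sham, was annotated in a 3′-UTR, and lay wholly in Cacng8, an auxiliary subunit of AMPA receptors. Most bases of the peak therefore lay outside the hairpin, in a 3′-UTR of polyadenylated RNA. For miR-1895, 30 of 79 hairpin bases lay in the sham peak named Gm26691 (fold enrichment 37.2), at chr3:134240024-134240534 and within Cxxc4.

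How much of the whole set stood on the named transcript was counted by setting the exonic bases of each row against the span of the transcript it was assigned to. In CCI 76.1% of the Gm and Rik rows lay inside that span, 16.6% crossed its edge and 7.33% (6.29 to 8.53, 153 of 2088) had no base in it. In sham the 3 shares were 75.6, 16.7 and 7.75%. Among all other genes 0.289% of CCI rows and 0.271% of sham rows had no base in the named transcript. Over all lists together 374 Gm and Rik rows of 198 names were of this kind, 8.04% against 0.292%. In all 374 the named transcript sat in a gap between the blocks of a spliced peak, that is in an intron of what the peak covered: the median named span was 648 bases and the median peak span with its introns was 19100 bases.

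**Figure D1:**
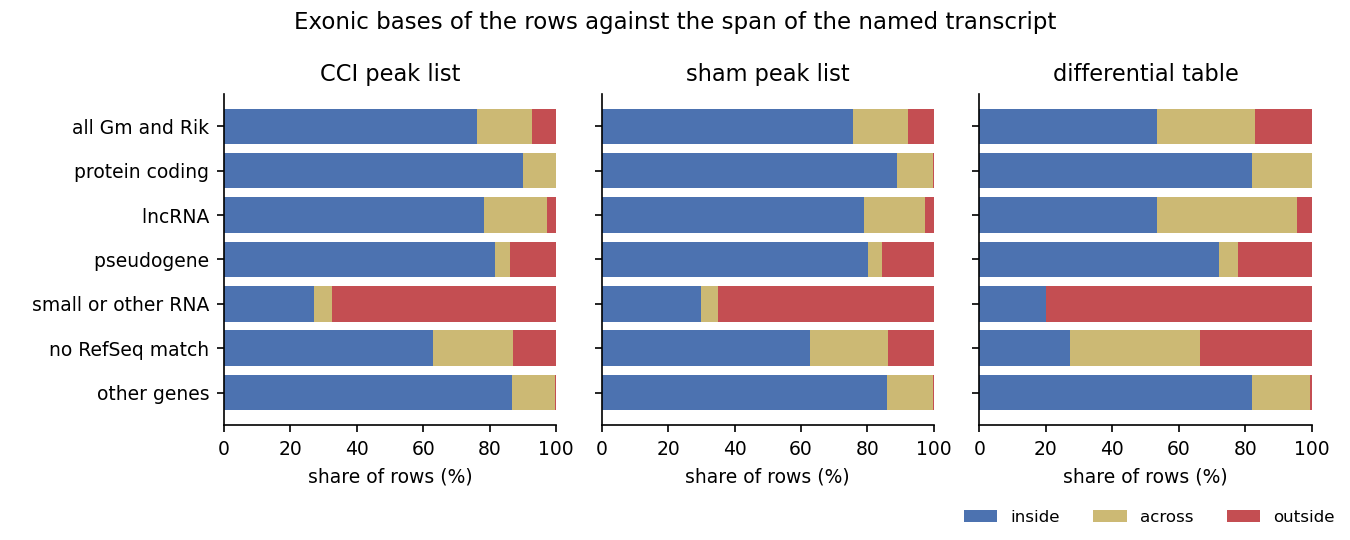
Share of rows (x axis, %) whose exonic bases lie inside, across the edge of, or outside the span of the named transcript, for all Gm and Rik rows, for each RefSeq class of the name and for other genes, in each table. Rows outside the named span are 67.6% of small-RNA rows in the CCI list and 0.158% of protein-coding rows.

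The classes differed widely in this respect. Of rows named for small or other RNAs (18 of the 38 names are spliceosomal snRNA models and 11 are snoRNA models) 67.6% in CCI (25 of 37) and 65% in sham (26 of 40) had no base in the named RNA. The share was 13.8 and 15.5% for pseudogenes, 12.9 and 13.8% for names with no RefSeq match, 2.82 and 2.65% for lncRNAs, and 0.158 and 0.155% for protein-coding genes. Gm names accounted for most of it, with 12.3% of Gm rows against 1.64% of Rik rows in CCI. Of the CCI rows outside the named span 147 of 153 (96.1%) lay within a protein-coding RefSeq gene of another name, as did 67.1% of those across its edge and 25.1% of those inside it. Gm44415 is the strongest example, with a fold enrichment of 164 in CCI and 224 in sham, all 781 CCI bases in Antxr1, and the Gm44415 span at chr6:87138741-87140852 in the gap. 5530401A14Rik, an lncRNA model within an intron of the acid-sensing channel gene Asic2, named a peak of 448 bases in CCI and 1522 bases in sham with none of them in 5530401A14Rik.

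The rows of the set fell in other parts of transcripts than those of other genes. In CCI 61.9% (59.8 to 63.9) were annotated as exon, 29.1% (27.2 to 31.1) as 3′-UTR and 9.05% (7.9 to 10.4) as 5′-UTR, against 33.7, 51.2 and 15.1% of other genes' rows. Sham gave 62.6, 27.9 and 9.51%, against 33.1, 50.4 and 16.5%. A transcript with no coding sequence has no UTR, and the classes differed accordingly: protein-coding Rik and Gm genes had 49.2% of CCI rows in a 3′-UTR and 36.8% in exons, close to other genes, while 81.7% of lncRNA rows and 84.2% of pseudogene rows were exonic. All the same, 143 of 757 CCI rows of non-coding classes (18.9%) and 161 of 899 sham rows (17.9%) were annotated in a UTR. Of these, 58.7% in CCI and 57.8% in sham did not lie inside the named span.

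**Figure D2:**
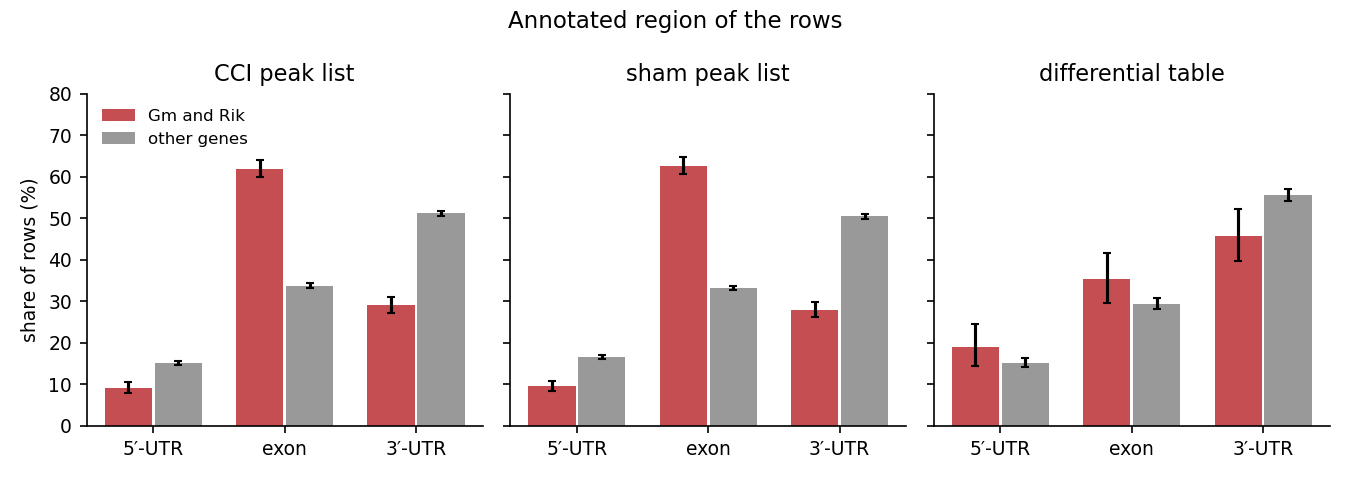
Share of rows (y axis, %) annotated in 5′-UTR, exon and 3′-UTR for Gm and Rik names and for other genes in each table, with 95% Wilson intervals as bars. In the 2 peak lists exon is the largest group for Gm and Rik names (61.9 and 62.6%) and 3′-UTR for other genes (51.2 and 50.4%); among differential rows the 3′-UTR is the largest for both (45.8 and 55.6%).

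Rows annotated to a UTR carry no exon number, so the place within a transcript can be given for exon rows only and not compared between coding and non-coding classes. Of CCI rows placed in an exon of the named gene, 27.5% (24.9 to 30.4) were in transcripts of 1 exon. Of those in transcripts of several exons 53.3% (49.6 to 56.9) were in the last exon. For lncRNAs that share was 64.7% in CCI and 65.3% in sham, and for the exon rows of protein-coding members 31 and 31.9%. An exon annotation did not always belong to the named gene: 23% of exon rows in CCI and 22.6% in sham cited an exon of a different gene, against 6.74 and 7.4% of other genes' exon rows.

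The median fold enrichment of the set was 7.43 in CCI (95% order-statistic interval 6.91 to 7.99; quartiles 4.01 and 13, range 1.28 to 1040) against 5.6 for other genes. In sham it was 7.21 (6.97 to 7.55; quartiles 3.95 and 14.3, range 1.29 to 763) against 5.58, so that both intervals lay above the value of other genes. Protein-coding members were nearest to other genes, with medians of 6.17 and 6.25. The medians were 7.69 and 7.55 for lncRNAs, 8.86 and 8.41 for pseudogenes, 8.82 and 8.52 for small or other RNAs and 8.14 and 7.44 for unmatched names. The gap was in exons (7.3 against 4.49 in CCI) and 3′-UTRs (7.3 against 5.88), and 5′-UTR rows had a median of 8.51 in both sets in CCI, and of 7.43 against 8.25 in sham.

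The higher ratio did not come with stronger evidence for a peak. The median log10 false discovery rate listed for members was -10 in CCI and -9.89 in sham, against -15.8 and -17.6 for other genes, and with each list cut into 4 equal parts by this rate 33.7% of CCI members and 36.2% of sham members were in the weakest part. In that part the median fold enrichment of members was 5.93 in CCI and 5.81 in sham, against 3.3 and 3.58 for other genes. Some ratios also recurred exactly: 6 values in CCI and 12 in sham were each held by at least 200 rows, and 8.38% of CCI members and 17.3% of sham members had 1 of them, against 3.96 and 9.25% of other genes' rows. The part of input depth in these repeated values was not tested, and the library depths are unknown here.

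**Figure D3:**
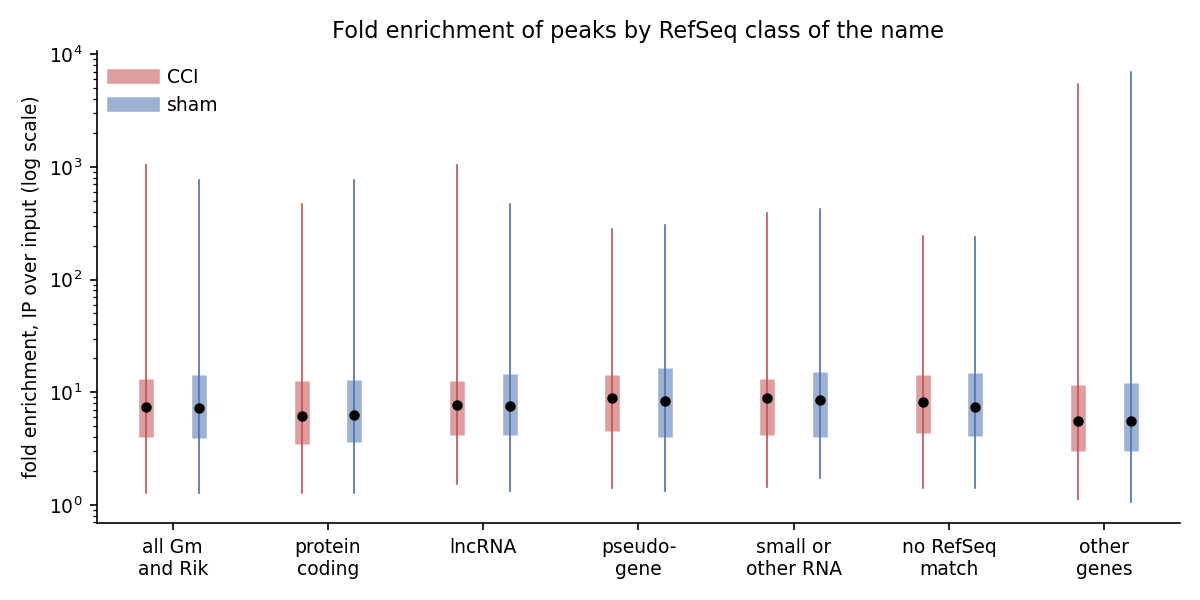
Fold enrichment (y axis, log scale) of rows in the CCI and sham lists by RefSeq class of the name. Points are medians, thick bars run between the quartiles and thin lines from the lowest to the highest value; the medians of all Gm and Rik rows are 7.43 and 7.21, those of other genes 5.6 and 5.58.

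The highest ratios of the set belonged to few loci, and several of those loci also lay within or across the spans of known genes. Among Gm and Rik rows 1600020E01Rik, an lncRNA that starts beside the RNA-binding protein gene Pcbp1, had the highest value in CCI, 1040 (469 in sham). In sham 6030419C18Rik, shown above, had the highest value of these rows. Other genes reached 5410 in CCI and 6910 in sham. The CCI peak of 1600020E01Rik at chr6:86525811-86526291 had 379 of 481 bases in Pcbp1 and 45 in the lncRNA. The peak of 1700008O03Rik (253 in CCI, 458 in sham) had 991 of its 1050 CCI bases in Shank1, a postsynaptic scaffold gene, and 111 in the named gene. Gm26673 (243 and 178) had all of its 1315 bases in Kcna6, a voltage-gated potassium channel gene, and 936 in the named model.

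Other strong peaks stood on the named transcript alone. 4930432E11Rik, an RNA of unassigned type, carried 3 paired peaks in its last exon with values of 386 and 425, 184 and 26, and 107 and 90.6 (CCI first). The pseudogene Gm7336 had a peak of 177 bases ending at the end of its only exon, with 281 in CCI and 306 in sham. C130021I20Rik, an lncRNA with its peaks in exon 3 of 3, had 148 in CCI and 270 in sham. Of these 5 pairs 1, the second of 4930432E11Rik, had values more than 2-fold apart.

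Names with many loci show what a catalogue model can gather. 1045 of the 1483 names (70.5%) had 1 locus and 57 (3.84%) had 5 or more. Gm20388 led with 25 loci, from a model of 4434882 bases at chr8:119910841-124345722. No row of its 47 cited an exon of Gm20388, and all 47 cited exons of 12 other gene identifiers. Overlap with the exons of Gm20388 itself was not counted. Its fold enrichment ran from 2.04 to 46.4 in CCI and from 1.64 to 26.7 in sham, and of its 20 pairs 11 were higher and 9 lower in CCI. The next, Gm26672 and Gm37013 with 17 loci each, lie on chromosome 18, and all 34 and all 23 of their exon rows cited other genes, members of the gamma protocadherin cluster among them.

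The transcribed pseudogene 5830417I10Rik (13 loci) is of another kind, with 27 of its 38 rows in its own exons. Its strongest pairs went in opposite directions, at 12.1 in CCI against 45.3 in sham in exon 14 of 19 and at 39.1 against 17.3 in a peak annotated to an exon of another gene identifier. All 449 bases of the sham peak with 45.3 and all 271 of the CCI peak with 39.1 also lay in the span of the lncRNA 1500004A13Rik. 2610203C20Rik, the Mir100hg host transcript, had 9 loci, and its top peak was 98 in CCI and 33.7 in sham (log2 ratio 1.54). The hairpins of Mir100, Mirlet7a-2 and Mir125b-1 in its span had 0 bases in a peak named 2610203C20Rik. Peaks of genes outside the set were not searched for them.

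Most members were listed in both groups. A member peak had a partner, a row of the other list that shared an exonic base on the same strand, in 82.8% of CCI rows (81.1 to 84.3) and 74.7% of sham rows (72.9 to 76.4). For other genes the shares were 87.3 and 83.9%. By class the CCI share was 87.2% for protein-coding members, 78.3% for lncRNAs and 80.9% for pseudogenes, and the sham share 81.9, 66.1 and 68%. Within the 4 parts of each list by false discovery rate the distance between members and other genes was smaller than over the whole list: 96.9 against 99.3% in the strongest CCI part, 97.2 against 98.6%, 89.5 against 88.3%, and 60.7 against 62.1% in the weakest, and in sham 96.3 against 99.7%, 95.8 against 98.9%, 83.5 against 86.1% and 46 against 49.2%.

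**Figure D4:**
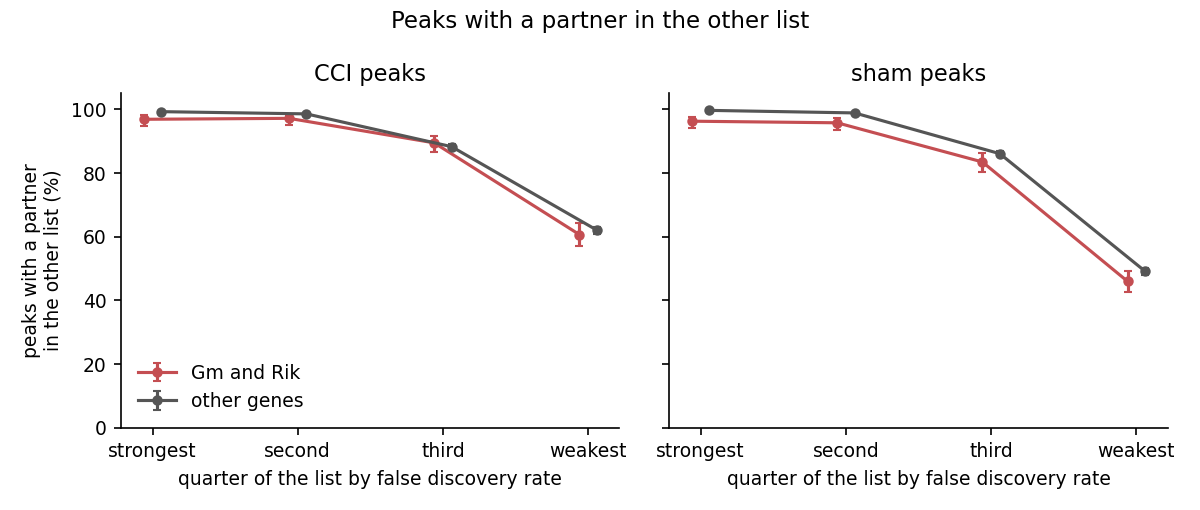
Share of peaks (y axis, %) with a partner in the other list, in 4 equal parts of each list from the strongest to the weakest false discovery rate, for Gm and Rik names and for other genes, with 95% Wilson intervals. Both lines fall from above 95% in the strongest part to 60.7 and 62.1% in CCI and to 46 and 49.2% in sham.

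Absence of a partner was in part a matter of name and strand. Of 360 CCI members without a partner 47 (13.1%) had a row on the opposite strand in the sham list, against 4.34% of other genes' unpartnered rows, and of 588 sham members 65 (11.1%) had such a row in CCI, against 2.31%. Among the 5 strongest unpartnered members of each list 8 of 10 were of this kind, and each opposite row was named for a protein-coding gene. In CCI 6330403L08Rik (57) lay over the growth factor gene Pdgfa (216 in sham), 9330160F10Rik (38.9) over Borcs6 (28.4 and 17.4), 4930515G01Rik (34.4) over Ankrd13a (66.2) and Gm23772 (42.7) over B3gnt2 (9.27 to 54.6). In sham Gm27316 (121) lay over Adap1 (68.8 in CCI), B230323A14Rik (67.4) over the transcription factor gene Foxb1 (11.9 to 50.4), D030055H07Rik (62.8) over Glyctk (43.8 and 28.3) and Gm26796 (53.5) over Ccdc177 (90.2). The 2 with no row on either strand in the other list were Gm15333 in CCI (30.2) and Gm15706 in sham (53.5). A name listed in 1 group only is therefore not the same as a region listed in 1 group only.

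Counted as loci, 1454 of 2380 (61.1%) had rows in both peak lists, 359 in CCI only and 566 in sham only, and 1 was in the differential table alone. Of other genes' loci 73.7% had rows in both. Of the 359 and 566, 57 (15.9%) and 78 (13.8%) had a row of another name in the other list.

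Fold enrichment in CCI was set against sham in 1560 pairs of member peaks. Their median log2 ratio was -0.01 (quartiles -0.47 and 0.47, range -3.72 to 3.04), against 0.03 (-0.37 and 0.44) over all 27236 pairs, and 786 of 1560 (50.4%) were lower in CCI, where the share over all pairs was 47.8%. At least 2-fold higher in CCI were 172 pairs (11%, 9.57 to 12.7), where the share over pairs of all genes was 8.58%, and at least 2-fold lower were 157 (10.1%, 8.67 to 11.7), where it was 7.23%. Both intervals lay above the share of all genes. Among pairs with a fold enrichment of at least 5 in both lists this was not so for rises, and 8.67% of members were higher and 10.6% lower, against 9.36 and 8.78% of other genes. In pairs higher in CCI the median log10 false discovery rate of the sham row was -6.17, and in pairs lower in CCI that of the CCI row was -4.85, against -19.5 and -15.2 in pairs under 2-fold. Peak length differed in both directions. The median exonic length in CCI and sham was 254 and 210 bases in pairs at least 2-fold higher and 181 and 241 in pairs at least 2-fold lower. In pairs under 2-fold it was 260 and 269.

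Among the classes lncRNA pairs were at least 2-fold higher in 14.7% (11.6 to 18.5, 61 of 414) and at least 2-fold lower in 10.1%. Protein-coding members gave 8.5 and 9.92%, pseudogenes 8.7 and 13%, unmatched names 11.1 and 9.38%, and of 25 small or other RNA pairs 2 were higher and 3 lower. The median log2 ratio of every class lay between -0.12 and 0.01.

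**Figure D5:**
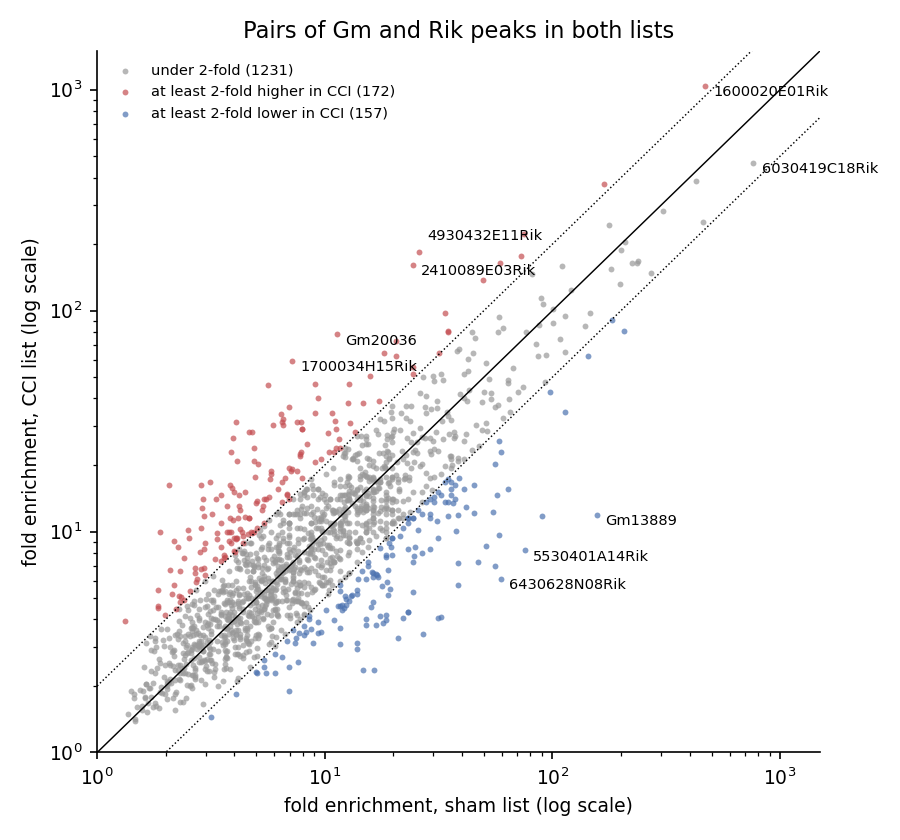
Fold enrichment of 1560 pairs of Gm and Rik peaks in the sham list (x axis, log scale) and the CCI list (y axis, log scale), 1 point a pair. The solid line marks equal values and the dotted lines a 2-fold difference; 172 pairs lie above the upper dotted line and 157 below the lower.

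Of the 8 names furthest above the line 4 are of a non-coding class, 3 are protein-coding and 1 has no RefSeq match. The 1560 member pairs held 414 of lncRNAs, 115 of pseudogenes and 25 of small or other RNAs, with 494 of protein-coding and 512 of unmatched names. A count of 8 is too small to set the classes apart. 1700034H15Rik, an lncRNA that overlaps the zinc transporter gene Slc30a1, had 59.4 in CCI and 7.2 in sham (log2 ratio 3.04) in exon 5 of 5. That CCI peak had no base in the span of Slc30a1. Another pair of 1700034H15Rik, across the edge of the named span, had 19.5 and 18.4 (0.08). The lncRNA Gm20036 had 78.2 and 11.3 (2.79) in its last exon, the unmatched model B830042I05Rik 45.9 and 5.62 (3.03), and the transcribed pseudogene A930017M01Rik 16.2 and 2.06 (2.98) in its first exon. In the last exon of 4930432E11Rik the peak with 184 and 26 (2.82) lay next to the peak with 386 and 425 (-0.14). The CCI peak was the longer for 1700034H15Rik (270 against 150 bases), B830042I05Rik (241 against 181), A930017M01Rik (389 against 151) and 4930432E11Rik (810 against 720).

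Of the coding members 2410089E03Rik (Cplane1, a ciliogenesis gene) had 161 and 24.4 (2.72) over exon 43 of 53. That peak had 241 bases in both lists and crossed the edge of the named span. The other pairs of 2410089E03Rik, in exons 13, 27, 33 and 34, had log2 ratios from -0.15 to 0.63. 2510039O18Rik had 26.6 and 3.95 (2.75) in a 3′-UTR peak and 14.6 and 32.5 (-1.15) at its 5′-UTR. In both transcripts the ratio differed from peak to peak. 1700066B19Rik had 31.3 and 4.07 (2.94) in a single pair, and all 241 bases of its CCI peak also lay in Ecscr.

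The pairs furthest below the line were led by Gm13889 (log2 ratio -3.72), where the peak borders differed between the lists. In sham overlapping rows of 1240 and 1327 bases had 157 and 161, and a row of 346 bases had 75. CCI had 4 rows. Among them were a 3′ peak of 798 bases with 11.9 and 5′ peaks of 325 and 472 bases with 214 and 223. The ratio is that of the CCI row of 798 bases and the sham row of 1240 bases. All Gm13889 rows with a value of at least 20 also lay within the span of the lncRNA Gm33160. For 6430628N08Rik (6.12 in CCI, 59.3 in sham, -3.28), 2810006K23Rik (6.95 and 55.8, -3.01) and 1700023F06Rik (Efcab15, 11.8 and 89.5, -2.92) both peaks were in 3′-UTRs, and the CCI peak was the shorter (268 against 417 bases, 121 against 180, 238 against 297). A730020M07Rik (3.43 and 27.1, -2.98) and A130010J15Rik (4.04 and 31.4, -2.96) had CCI peaks of 60 and 61 bases within sham peaks of 300 and 151 bases. In 2900026A02Rik (4.1 and 32.5, -2.99) a CCI peak of 151 bases lay in a sham peak of 959. 5530401A14Rik, the name given to an Asic2 region, had 8.21 and 75.5 (-3.20).

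Of the 2380 loci 199 (8.36%, 7.32 to 9.54) had a row in the differential table, where the share of other genes' loci was 12.8% (12.4 to 13.1), so that the intervals did not overlap. By class the share was 10% for protein-coding members, 5.7% for lncRNAs, 8.67% for pseudogenes, 10.9% for small or other RNAs and 9.3% for unmatched names. Listing was about as frequent at every size of the ratio between the peak lists: 21 of 172 pairs at least 2-fold higher (12.2%), 19 of 157 at least 2-fold lower (12.1%) and 133 of 1231 under 2-fold (10.8%) had their locus in it. Being listed is the only use made of that table here.

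Many differential rows did not stand on the named transcript. Of 238 member rows 53.4% lay inside the named span, 29.4% crossed its edge and 17.2% (13 to 22.5) had no base in it, and 46.6% were thus not inside, against 18% for other genes. Rows that shared bases with a row of a gene outside the set made up 29.8% (24.4 to 35.9), against 9% of CCI and 10.3% of sham member rows. Of the rows of non-coding classes 32 of 68 (47.1%) were annotated in a UTR. For Gm names alone 27.5% were outside the named span, for Rik names 3%.

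6 names had at least 3 differential rows. Gm10544 had 13, all in 1 locus of the alpha protocadherin cluster on chromosome 18 where the peak lists held 6 CCI rows (8.36 to 8.61) and 14 sham rows (8.63 to 12). The 13 rows are thus 1 merged region listed several times, and the reason for the repeats was not tested. Gm996 (Ajm1, a junction protein) had 6 differential rows, 3 over each of 2 stretches that the table annotates to exon 1 of Gm26702, with paired values of 4.05 in CCI and 7 in sham, and of 11.6 and 9.66. Gm42372 had 4, among them 28.7 and 21.4 and 53 and 42.4 in 3′-UTR peaks, and C530008M17Rik, Gm28042 (within Pla2g4b) and Gm5124 had 3 each.

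The coding RIKEN genes that are mouse forms of human KIAA cDNAs, large and mostly little studied proteins with brain expression, were read as a group of 7, and all 7 had peaks in both lists. The peaks of E130308A19Rik differed most among themselves, with 72.5 in CCI and 20.5 in sham over exon 2 of 4 (1.82), 10.9 and 20.1 (-0.88) in a 3′-UTR and 2.35 and 16.4 (-2.80) further along the same 3′-UTR. C530008M17Rik (Cracd, a regulator of actin capping) had 64.3 and 44.6 over its long internal exons and a 5′-UTR peak listed in sham only (31.4 and 32.5 in 2 overlapping rows). All 6 pairs of D630045J12Rik were higher in CCI, with log2 ratios of 0.13 to 1.52. 6430548M08Rik had 63.1 and 94.1 at its 5′ end and 19.4 and 23.9 in its 3′-UTR. 4932438A13Rik, a very long lipid transfer protein gene, had its strongest pair at 14.1 and 10.5, and 2610507B11Rik at 7.19 and 5.93, both in 3′-UTRs. D430041D05Rik, with 10 loci, had 3 pairs higher and 7 lower, from -0.24 to 1.52.

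Of 3 genes of small mitochondrial proteins 2 had a row. 1500011K16Rik (Mtln, a microprotein of lipid oxidation) had 7.15 in CCI and 5.09 in sham, 2410015M20Rik (Micos13, of the cristae junction complex) 2.46 in sham only, and 2010107E04Rik had no row. Of 7 lncRNAs with known brain or developmental expression 4 had a row. 2610035D17Rik had 36 and 29.3 at its 3′ end, C130071C03Rik 11.9 and 38.3 (-1.69) in exon 4 of 4, 1700020I14Rik (Oip5os1, also called Cyrano) 3 and 3.1, and 2610307P16Rik 9.38 in CCI only. A330008L17Rik, B830012L14Rik and A330076H08Rik had none. Beyond that list, 2810468N07Rik (Cerox1, an lncRNA linked to respiratory complex I) had 79.7 and 57.5 in exon 2 of 2. Of 15 Gm models over ribosomal RNA or satellite repeats 1 had a row, Gm26917, with 16.3 in sham, 211 bases of which 99 were in the model.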

How the data were processed

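MeRIP-seq peak tables of spinal cord, with 1 IP and 1 input library in each of 2 groups, were used as deposited. The submitters' processing notes name fastp, HISAT2, HOMER, ChIPseeker and GRCm38, while the study's methods name Cutadapt, bowtie, MACS2 and ChIPseeker, and the columns carry exomePeak names, so the peak caller is uncertain. The authors deposited for each peak a fold enrichment of IP over input, a linear ratio, and the log10 of its false discovery rate, treated as a score. The third deposited table also holds the authors' fold changes and p-values between groups, and neither was used: only its rows' positions and annotation were read. Peaks have no strand of their own, so the strand of the assigned gene was used. No depth is given.

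With Python 3.11.15, pandas 2.3.3, numpy 2.4.6 and scipy 1.17.1, members were rows whose gene name is Gm and digits or ends in Rik. Exonic bases were taken from the blocks of each row. Rows sharing at least 1 exonic base on the strand of the gene were merged into loci, and a CCI and a sham row were paired where each was the other's best partner by shared bases over joint bases. Overlap counts were tested on simulated data. RefSeq (GRCm38.p6) gave classes, spans and sequences, and no genome was used. Genes named in the text were the 10 with most loci, the 10 with the highest fold enrichment, the 8 largest rises and 8 largest falls among pairs with a fold enrichment of at least 2 in both lists, the 5 highest without a partner in each list, those with at least 3 differential rows, and models fixed by name. The promoter and microRNA examples, the genes around them, and Cerox1 were chosen after their values were seen. Members and lists were chosen with earlier results of these data known. Alternatives changed the overlap, the strand, the filters on false discovery rate and fold enrichment, the centring and the treatment of shared rows.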

Additional observations from a re-analysis of the deposited data

How the results depend on the processing

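No paired analysis was possible because CCI and sham are represented by a lone IP and a lone input library, and for the same reason none could be left out. The values of 16 results were computed under 50 alternatives, of which 32 stayed within the interval of the value (within 1.5 times for counts) and 18 did not. Demanding that a pair share at least 0.5 of both peaks, in place of 1 base, lowered the share with a partner to 70.8% in CCI and 64.1% in sham, and accepting either strand, chosen after seeing the data, raised it to 85 and 77.5%. At a limit of 1.5-fold 340 member pairs were higher and 327 lower in CCI, and the share over all pairs was not computed at that limit. With a fold enrichment of at least 5 in both lists, also chosen after seeing the data, 79 were higher and 97 lower, which turns the order of the counts. Centring on the median of all pairs does so too (163 and 165). The differential share was 12.2% over gene names in place of loci, and 6.78% over loci sharing no base with a row of another name. Other genes were not counted in either way, so neither share can be set against their 12.8% of loci. The share of loci that share bases with another name, 11.4% on either strand, was 2.86% on the same strand and 7.52% where at least 0.5 of the locus had to be shared. Without rows that share bases with another name exons held 64% of CCI and 65.4% of sham members and 5′-UTRs 7.47 and 8.25%. Counting a gene no more than 1 time in a region put 10.8 and 11.6% in 5′-UTRs. The cause of these shifts was not tested beyond what each setting removes. The number of loci ranged from 2239 to 2430, the median log2 ratio from -0.04 to 0.00 and the median fold enrichment from 7.18 to 7.43 in CCI and from 6.97 to 7.55 in sham.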
